A study of Mus musculus with 32 samples.

Results

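The sites described here are the stretches of the mouse autosomes that were marked by trimethylation of histone H3 at lysine 9 (H3K9me3) in every list of the series, outside the long marked domains. They were chosen by the measured peaks themselves. The autosomes were divided into bins of 1 kb counted from position 0, and a bin was called in a list when at least 50% of it lay in peaks. Members are the bins called in all 8 deposited lists, leaving out those inside 683 merged regions of 30 kb or more that were built from overlapping peaks of at least 10 kb. This gave 81716 member bins, or 81.7 Mb, of 494208 autosomal bins called in at least 1 list (16.53%). Adjacent member bins formed 30496 runs. Of 98218 bins called in all 8 lists, 16502 lay inside the long regions and are not members, while 104 bins that only touch the edge of one are.

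The lists come from ChIP-seq of male germ cells isolated from testes of Mvh-Venus transgenic mice, which carry a fluorescent reporter of germ cells. Cells were taken from Morc1 (+/-) mice, called het, and from Morc1 (-/-) knockout mice, called KO, before birth at E13.5 and E16.5 (days of embryonic development) and at P0 and P3 (postnatal days). The control animals therefore lack 1 Morc1 copy, and both genotypes carry the transgene. The labels give 32 samples in 16 groups of 2, with an H3K9me3 antibody in 16 samples and an antibody against H3 in the other 16. Each of the 8 lists stands for 1 genotype at 1 stage, so there is no replicate error and no test. All values describe the lists, and where a spread is given it is the range over the 19 autosomes or, for runs, the quartiles. Read depth is unknown, and the number and length of called peaks depend on it. The labelled cell type could not be checked, since peak lists hold no expression values.

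H3K9me3 is the mark of constitutive heterochromatin. It is written by methyltransferases such as SETDB1, SUV39H1 and SUV39H2, is bound by HP1 proteins, and is known at pericentromeric repeats, at retrotransposons and over clusters of duplicated genes. Male germ cells of these stages, the gonocytes, have erased most of their DNA methylation and then rebuild it before and around birth, and H3K9me3 is one of the marks that keep transposons silent in that window. MORC1 is a nuclear ATPase of germ cells that is needed for the silencing of transposons in the male germ line.

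Sequences in and around these sites are shown first, through the promoters that lay wholly inside member bins. A promoter window here is 300 bases from RefSeq (build GRCm38.p6), 250 before and 50 after a gene's start, given 5′ to 3′ on the gene's strand, with every CG dinucleotide in capitals. The first set holds 3 windows from the longest member runs. A run tied with the last of them at 27 kb also held the Slc22a26 window, with 1 CG, which is not shown. Vmn2r74 encodes a vomeronasal receptor (chr7:85961433-85961732, minus strand, in a run of 29 kb), Olfr1465 an olfactory receptor (chr19:13314234-13314533, minus strand, in a run of 29 kb), and Igfl3 a secreted IGF-like protein (chr7:18176244-18176543, plus strand, in a run of 27 kb). None of the 3 windows shown holds a CG dinucleotide.
Vmn2r74: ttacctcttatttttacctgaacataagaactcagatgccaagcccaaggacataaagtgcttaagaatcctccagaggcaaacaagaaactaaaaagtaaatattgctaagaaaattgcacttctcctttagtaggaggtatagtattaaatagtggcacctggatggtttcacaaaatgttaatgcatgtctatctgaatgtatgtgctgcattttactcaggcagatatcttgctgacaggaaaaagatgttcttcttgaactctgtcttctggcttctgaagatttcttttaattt
Olfr1465: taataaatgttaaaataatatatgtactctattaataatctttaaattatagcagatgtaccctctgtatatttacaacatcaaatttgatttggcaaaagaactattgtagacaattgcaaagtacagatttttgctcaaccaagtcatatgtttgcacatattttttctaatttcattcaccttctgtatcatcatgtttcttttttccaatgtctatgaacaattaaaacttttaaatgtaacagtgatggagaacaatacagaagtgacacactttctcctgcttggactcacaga
Igfl3: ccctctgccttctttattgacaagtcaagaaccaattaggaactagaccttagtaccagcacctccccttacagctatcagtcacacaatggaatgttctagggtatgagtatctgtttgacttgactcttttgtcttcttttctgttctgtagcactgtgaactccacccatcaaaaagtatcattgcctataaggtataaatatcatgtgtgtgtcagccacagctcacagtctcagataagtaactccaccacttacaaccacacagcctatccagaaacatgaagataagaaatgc

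The second set holds the member promoters with a CpG ratio of 0.6 or more, which were picked after their values were seen. The CpG ratio is the number of CG dinucleotides divided by the number its C and G content would give. Only Olfr1055 (chr2:86347715-86348014, minus strand), Mfap2 (chr4:141010431-141010730, plus strand) and Cox19 (chr5:139345117-139345416, minus strand) reached it among the protein-coding windows inside members. Mfap2 encodes a microfibril protein of the extracellular matrix, and Cox19 a protein needed for the assembly of cytochrome c oxidase. The Mfap2 and Cox19 windows hold 22 CG dinucleotides each. The Olfr1055 window holds 3, with a ratio of 0.74 at a GC content of 23.3%.
Olfr1055: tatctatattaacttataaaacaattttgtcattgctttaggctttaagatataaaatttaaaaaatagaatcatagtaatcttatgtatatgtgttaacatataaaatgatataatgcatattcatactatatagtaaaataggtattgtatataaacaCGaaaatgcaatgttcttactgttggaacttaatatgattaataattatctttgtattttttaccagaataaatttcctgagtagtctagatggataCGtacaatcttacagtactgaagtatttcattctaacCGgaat
Mfap2: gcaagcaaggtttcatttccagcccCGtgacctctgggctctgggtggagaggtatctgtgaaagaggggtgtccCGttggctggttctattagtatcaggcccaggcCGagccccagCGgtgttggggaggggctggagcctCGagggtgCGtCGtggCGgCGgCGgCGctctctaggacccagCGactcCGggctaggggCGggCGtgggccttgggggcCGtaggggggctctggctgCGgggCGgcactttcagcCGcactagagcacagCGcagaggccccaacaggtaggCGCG
Cox19: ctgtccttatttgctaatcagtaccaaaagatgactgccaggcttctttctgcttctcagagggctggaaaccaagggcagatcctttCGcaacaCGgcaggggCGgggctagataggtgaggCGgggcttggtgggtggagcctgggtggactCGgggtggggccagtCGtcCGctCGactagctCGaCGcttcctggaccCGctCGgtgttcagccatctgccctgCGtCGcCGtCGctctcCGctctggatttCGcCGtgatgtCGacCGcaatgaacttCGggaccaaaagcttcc

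The protein-coding promoter windows in members were CpG-poor, as were those in the classes of marked bins most like them. Of 20084 windows, 207 windows of 204 genes lay wholly in member bins, and 82 of them belonged to olfactory receptor genes (Olfr). Their median CpG ratio was 0.10, with a median of 1 CG per window, and 3 of 207 (1.45%) reached 0.6. Among 17993 windows in bins called in no list the median ratio was 0.62 and 52.0% reached 0.6. Among 1328 windows in bins called in 1 to 7 lists, the median was 0.26 and 25.2% reached 0.6. The 62 windows in bins called in the 6 later lists and neither E13.5 list had a median of 0.12, and the 100 windows in bins called in all lists inside the long regions 0.09, with 0 windows at 0.6 or more in either class. Many of the 207 windows belong to receptor genes. The Olfr windows were CpG-poor in uncalled bins too, with a median ratio of 0.11. Without the olfactory and vomeronasal genes, 103 windows remained in members, with a median ratio of 0.13 and 1.94% at 0.6 or more, against 0.65 and 54.3% in uncalled bins. Among long non-coding RNA genes the member windows had a median ratio of 0.17 (156 windows), the uncalled ones 0.25 (9432 windows).

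MicroRNA hairpins in members were few. Of 919 autosomal hairpins with a RefSeq sequence, 13 (1.41%) lay wholly in member bins, near the 1.52% of protein-coding gene body base pairs in members and below the 3.32% of all bins that are members. Of these, 5 lay in a single run of 4 kb, chr12:109592001-109596000, within the gene body of Rtl1, a retrotransposon-derived imprinted gene of the placenta. These are Mir127, Mir434, Mir432 and Mir136 on the plus strand and Mir3071 on the minus strand, which overlaps Mir136. Their mature sequences follow 5′ to 3′ with the seed, bases 2 to 8, in capitals. No seed is shared within this group.
mmu-miR-127-5p: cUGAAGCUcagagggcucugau
mmu-miR-127-3p: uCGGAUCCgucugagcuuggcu
mmu-miR-434-5p: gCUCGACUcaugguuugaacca
mmu-miR-434-3p: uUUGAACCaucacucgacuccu
mmu-miR-432: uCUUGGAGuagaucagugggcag
mmu-miR-3071-5p: aCUCAUUUgagacgaugaugga
mmu-miR-3071-3p: aUCAUCAAaacaaauggagucc
mmu-miR-136-5p: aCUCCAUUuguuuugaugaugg
mmu-miR-136-3p: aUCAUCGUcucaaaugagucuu

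The peak that held this Rtl1 run measured, from E13.5 to P3, 4.62, 5.09, 4.98 and 7.175 kb in the het lists and 4.63, 5.05, 7.395 and 7.73 kb in the KO lists. The peak was thus longest in both P3 lists and the P0 KO list.

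The members made up 3.32% of the 2460020 autosomal bins, and their weight in each list depended on how much that list called. The E13.5 lists called 6.49% (het) and 7.40% (KO) of all bins. The E16.5 lists called 11.9% and 10.9%, the P0 lists 12.6% and 13.2%, and the P3 lists 11.3% and 12.3%, in the same order. Members were 51.2% of the bins called in the E13.5 het list (42.6 to 56.7% over the autosomes) and 44.9% of those in the E13.5 KO list (36.9 to 49.8%). In the 6 later lists they were 25.2% (P0 KO) to 30.4% (E16.5 KO). The plot of called bins per list shows the same 81716 bins inside each of the 8 totals.

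**Figure D1:**
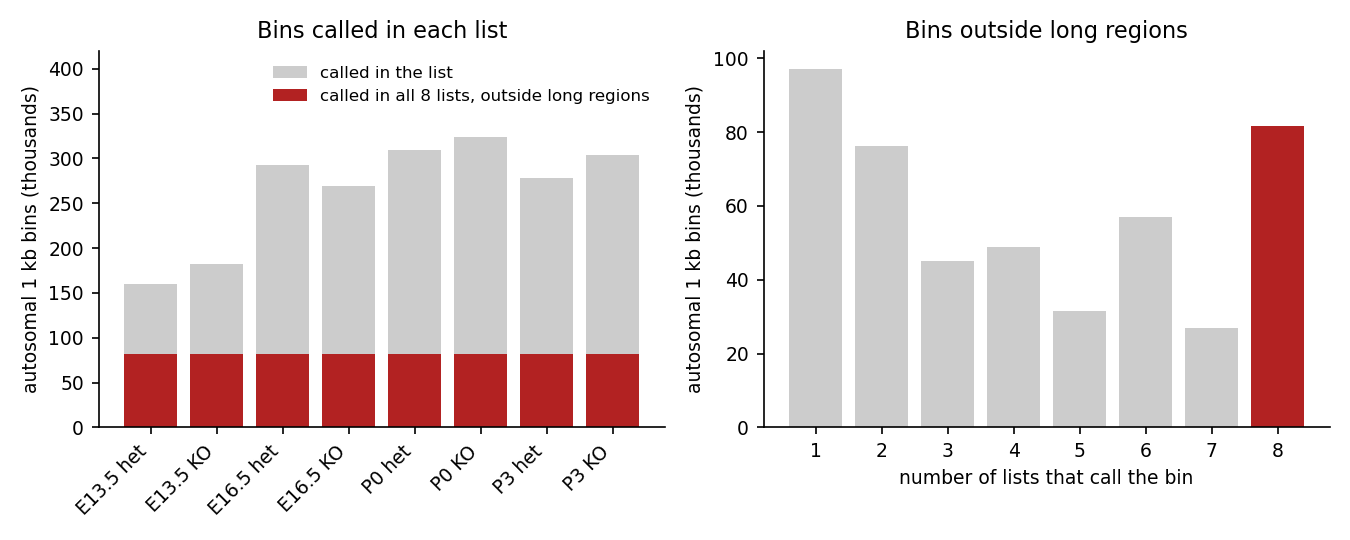
Left, autosomal 1 kb bins called in each list (grey) and the member bins, which are the same in every list (red). Right, bins outside the long regions by the number of lists that call them. The 81716 bins called in all 8 lists are more than those called in any number of lists from 2 to 7, and fewer than the 97199 called in 1 list.

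Outside the long regions, bins called in 1 list were the most numerous (97199), followed by those called in all 8 (81716). Between them lay 76156 bins called in 2 lists, 44987 in 3, 48801 in 4, 31463 in 5, 57018 in 6 and 26968 in 7. In the bins called in exactly 7 lists, the missing one was the E13.5 het list in 10816 (40.1%), the E13.5 KO list in 5766 (21.4%), the P3 het list in 4328 (16.0%) and the P3 KO list in 3427 (12.7%). The P0 het list was missing in 1169, P0 KO in 783, E16.5 KO in 380 and E16.5 het in 299. Where the E13.5 het list was the missing one, 54.3% of the bins held no peak base pair in it, and 52.0% lay directly beside a member bin.

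By genotype, 94830 bins outside the long regions were called in all 4 het lists and 102120 in all 4 KO lists. Members were 86.2% of the first and 80.0% of the second. Bins called at every stage in 1 genotype and at no stage in the other were few, 63 for het and 35 for KO. At the 50% limit, 3191 bins had a lowest coverage over the lists of 50 to 55%, just inside, and 3177 of 45 to 50%, just outside. At the 30 kb limit, the longest merged region still too short to be left out, chr6:59788640-59818606 (29967 bp), held 16 kb of members. The shortest one left out, chr8:52067654-52097676 (30023 bp), held 29.7 kb called in all lists, of which 0.676 kb stayed a member.

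Most sites were short. The median run was 2 kb and the mean 2.68 kb. Runs of 1 kb numbered 11389 (37.3%), whereas 10636 runs of 3 kb or more (34.9%) held 65.3% of the member bins. Runs of 10 kb or more numbered 848 and held 13.9% of the bins, and 71 runs reached 20 kb. Of the member bins, 51342 (62.8%) were covered over their whole length in all 8 lists. The median gap between neighbouring runs was 31 kb (quartiles 8 and 90 kb), 27.8% of gaps were under 10 kb, and the longest was 3790 kb. Every run lay in a single peak in each list, a consequence of the lists' own spacing: no peaks of a list were closer than 1499 bp.

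The longest runs lay in peaks close to their own length in all 8 lists, some of them slightly shorter than the run. The rule largely fixes this: every list must call each bin of the run, and regions of 30 kb or more are left out. A bin can be called without being wholly covered, so a peak can be shorter than its run. The run at chr6:19596001-19625000 (29 kb), between Ankrd7 and the potassium channel gene Kcnd2 and 716 kb from the nearer of them, lay in peaks of 29.1 to 29.6 kb in all 8 lists. The run of 29 kb at chr7:85944001-85973000, which overlaps Vmn2r74, lay in peaks of 28.7 to 29.1 kb. The run of 29 kb at chr19:13301001-13330000, which overlaps Olfr1465, lay in peaks of 29.4 to 29.7 kb. Runs of 27 kb overlapped Igfl3 (chr7:18161001-18188000), Zfp735 (chr11:73702001-73729000), a zinc finger gene, and Slc22a26 (chr19:7779001-7806000), a gene of the organic anion transporter family. The other runs of 27 kb overlapped no protein-coding gene, at chr9:36039001-36066000 and chr12:114597001-114624000. In these 5 runs the shortest peak was 26.4 kb and the longest 28.3 kb over the 8 lists. The last of the 10 longest, 2 runs of 26 kb at chr9:93297001-93323000 and chr9:93544001-93570000, lie in the same interval between Plod2 and Dipk2a. The peak around the second measured 29.5 to 29.7 kb in the 6 lists up to P0 and 26.1 and 26.4 kb in the P3 het and KO lists.

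The peak that holds a run was longer in the later lists than at E13.5 in most cases. Its median over the 30496 runs was 2619.5 bp in the E13.5 het list and 2880 bp in the E13.5 KO list. In the later het lists it was 4672 (E16.5), 4869 (P0) and 4390.5 bp (P3), and in the later KO lists 4458, 5168.5 and 4817.5 bp in the same order. For 51.6% of runs the peak was longer in each of the 6 later lists than in both E13.5 lists, and for 4.12% it was shorter in each of them. Since a member is called in every list, these lengths measure how far the called peak reached beyond the site. A run ends where any list stops calling or at a long region, and the E13.5 lists called the fewest bins. Shorter peaks at E13.5 are thus partly fixed by the rule. Called bins of any kind were also more numerous in the later lists, as given above, and the part of depth or threshold in this was not tested.

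This difference was seen at the short runs and not at the longest. For runs of 1 kb the mean peak over the E13.5 lists had a median of 1.72 kb and that over the later lists 3.44 kb. The median growth, later minus E13.5, was 1.45 kb at runs of 1 kb, 1.71 kb at runs of 2 kb, 1.82 kb at runs of 3 to 4 kb and 1.13 kb at runs of 5 to 9 kb. At runs of 10 to 19 kb it was -0.23 kb (quartiles -1.64 and 0.48 kb, 777 runs) and at runs of 20 kb or more -0.29 kb (71 runs). Runs of 20 kb or more, with a median E13.5 peak of 24.2 kb, had little room to grow below the 30 kb limit of the rule. Runs of 10 to 19 kb, with a median E13.5 peak of 14.8 kb, had more room. A run is the stretch that every list calls, so short runs often go with short E13.5 peaks. Sorting by run length thus sorts partly by E13.5 peak length, and growth at short runs is partly fixed by the rule. Why growth differed with run length was not tested. The 2 runs with the largest growth were edge bins: they lie mostly, but not wholly, inside a long region (897 and 854 of their 1000 bp), so the rule kept them. The first is chr6:14440001-14441000, a run of 1 kb between 2610001J05Rik and Ppp1r3a. Its peak measured 1.00, 63.1, 35.0 and 32.2 kb in the het lists from E13.5 to P3, and 16.8, 62.9, 35.6 and 34.7 kb in the KO lists. At the second, chr12:14440001-14441000, the peak went from 16.0 and 13.7 kb at E13.5 to between 41.7 and 42.1 kb in the later lists. The third, chr1:5899001-5900000, touched no long region. There, 13.7 kb from Npbwr1, a neuropeptide receptor gene, the peak went from 1.65 and 1.00 kb to between 25.7 and 26.8 kb.

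**Figure D2:**
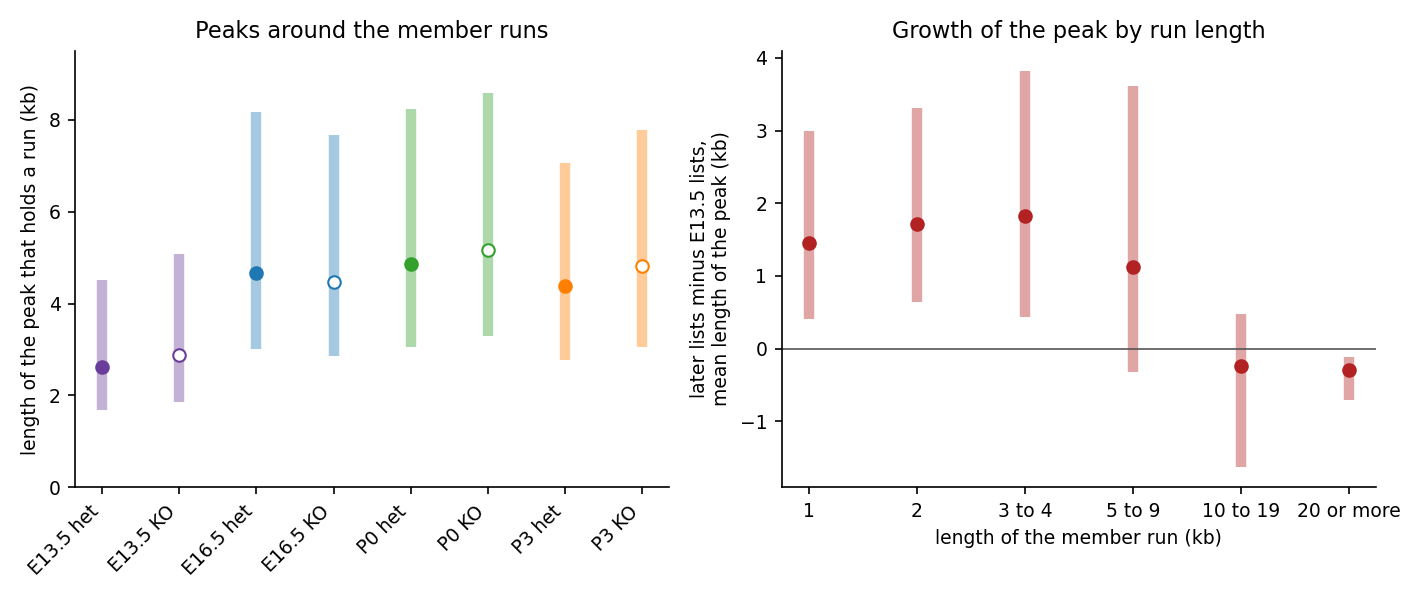
Left, length in kb of the peak that holds a member run, by list; points are medians over 30496 runs (filled het, open KO) and bars span the quartiles. Right, mean peak length over the 6 later lists minus that over both E13.5 lists, in kb, by length of the run (points medians, bars quartiles); the median is 1.45 kb at runs of 1 kb and below 0 from 10 kb upward.

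Beside the runs the calling fell off within a few kb. The first bin outside a run was called in 27.8% of cases in the E13.5 het list and 35.8% in the E13.5 KO list. In the later lists it was called in 49.96% (P3 het) to 63.9% (P0 KO). By the rule this bin is missing from at least 1 list or lies in a long region, so none of these shares could reach 100% in all lists at once. At 5 kb the shares were 5.99% and 7.95% at E13.5 and 13.53 to 17.7% later. At 20 kb they were 6.74% and 8.44% at E13.5 and 13.3 to 17.2% later, above each list's share over all bins. Member bins were left out of the positions beside runs but counted in the share over all bins, so these sets differ. Distance was measured from 1 run, and a position could lie closer to another run, since 27.8% of gaps between runs were under 10 kb. Within 5 kb on both sides together, the mean called length was 1.64 and 1.96 kb in the E13.5 lists and 2.96 to 3.63 kb in the later ones. These lengths include member bins of neighbouring runs.

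**Figure D3:**
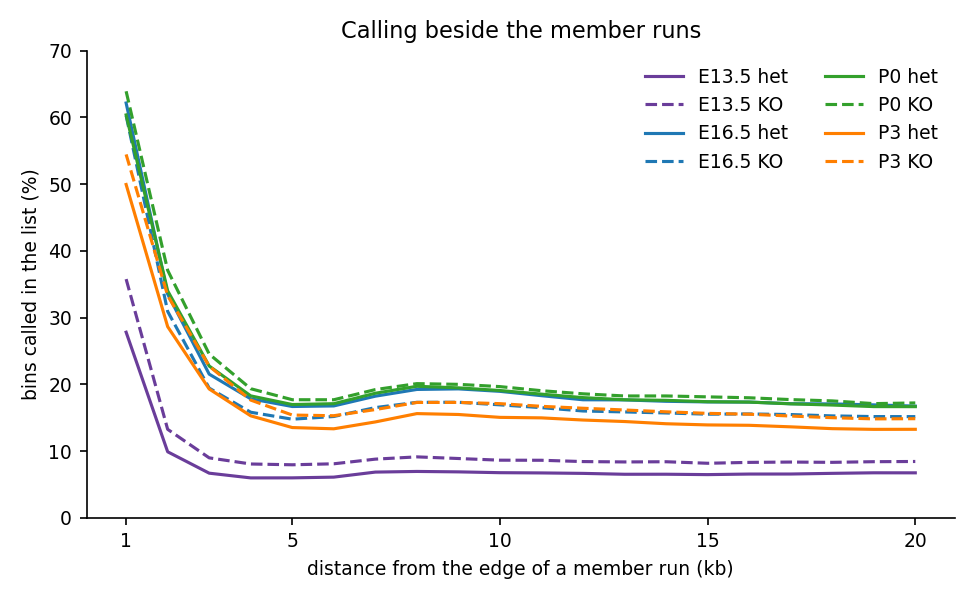
Share of bins called in each list (y axis, %) by distance in kb from the edge of a member run, which need not be the nearest run (x axis); solid lines het, dashed lines KO, colours the stages. At 1 kb the E13.5 lists sit at 27.8 and 35.8% and the other 6 lists between 49.96 and 63.9%, and from 4 kb outward the lines change little.

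The peaks around the sites were slightly longer in KO than in het at 3 stages and slightly shorter at E16.5. The median over runs of the KO minus het difference in holding peak length was 172 bp in the E13.5 lists and 197 bp in the P3 lists, against -108 bp in those of E16.5. By autosome, the median was 109 to 232 bp at the first stage, -151 to -90 bp at the second, 128.5 to 259 bp at the third and 130 to 264 bp at the last, so its sign was the same on all 19 autosomes within each stage. The KO peak was the longer one for 62.5%, 37.8%, 62.8% and 63.4% of runs in that order of stages. The total number of called bins went the same way at each stage: the KO list called more than the het list at E13.5, P0 and P3 and fewer at E16.5. The lists hold 1 pooled call set each, so a genotype difference and a difference between libraries cannot be told apart.

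Bins in long peaks were more often members. Outside the long regions, 20.4% of the E13.5 het bins in peaks of 1001 bp or less, the most common length, were members, against 73.4% of those in peaks of 10 kb or more. In the E13.5 KO list these shares were 11.5% and 66.0%. In the later lists, 1.81% (P0 KO) to 8.35% (P3 het) of bins in the shortest peaks and 45.3% (E16.5 het) to 52.2% (P3 het) of bins in the longest were members. Bins inside protein-coding genes were less often members than bins between genes in every list. For E13.5 het the shares were 49.0% of 29849 genic and 63.0% of 106476 intergenic bins, and for P3 KO 19.4% of 75297 and 32.5% of 206232. The genic share was the lower one on 17 to 19 of the 19 autosomes, depending on the list.

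The sites lay mostly away from genes. Gene positions are from RefSeq (GRCm38.p6) and did not enter the rule. Of the member bins, 17.9% lay in the body of a protein-coding gene (12.95 to 23.7% over the autosomes), against 40.0% of all autosomal bins and 43.8% of bins called in no list. Bins called in 1 to 7 lists stood between, at 27.7%, and members were lower than these on 19 of 19 autosomes. Bins called in the 6 later lists and neither E13.5 list were at 19.9%, with members lower on 15 of 19 autosomes. Bins called in all lists inside the long regions were at 8.67%, with members higher on 16 of 19. Of the member bins, 45.5% lay over 100 kb from the nearest protein-coding gene and 18.6% over 500 kb, against 28.8% and 9.81% of all bins. For bins called in the 6 later lists and neither E13.5 list these shares were 48.0% and 16.7%. For bins called in 1 to 7 lists they were 38.5% and 13.9%, and for those called in all lists inside the long regions 65.2% and 41.4%. Distance from genes is thus not particular to the members. Within 500 bp of a gene end lay 1.54% of member bins, against 3.04% of all bins. Here the other classes did not separate as cleanly: partly called bins were at 1.92%, with members lower on 14 of 19 autosomes, and bins called in the 6 later lists and neither E13.5 list were at 1.04%, with members higher on 16 of 19. Bins called in all lists inside the long regions were at 2.22%, with members lower on 12 autosomes and higher on 7.

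Counted by gene, 3266 of 20661 autosomal protein-coding genes (15.8%) had member base pairs in the body and 703 (3.40%) had them within 500 bp of an end. The share with a member in the body followed gene length: 3.86% of genes under 10 kb, 34.8% of genes of 50 to 200 kb and 98.1% of 215 genes of 500 kb or more. Per base pair the difference was small, 1.46% of the body in members in the shortest genes and 2.15% in the longest. For the 16456 genes whose strand was given, 267 (1.62%) had member base pairs at the 5′ end and 465 (2.83%) at the 3′ end. Without receptor and zinc finger genes, these shares were 0.92% and 2.14% of 14873 genes. For partly called bins the shares over all genes with strand were 11.3% and 15.4%. For bins called in the 6 later lists and neither E13.5 list they were 0.70% and 1.35%, so the side is not particular to the members. Bins called in all lists inside the long regions had 0.65% at either end. In 10549 genes of 10 kb or more divided into 10 equal parts from 5′ to 3′, 1.04% of the first part lay in members and 1.36 to 1.67% of each later part. The first part was also the lowest for partly called bins (8.83%). The same held for bins called in the 6 later lists and neither E13.5 list (0.60%), but not for those inside the long regions.

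**Figure D4:**
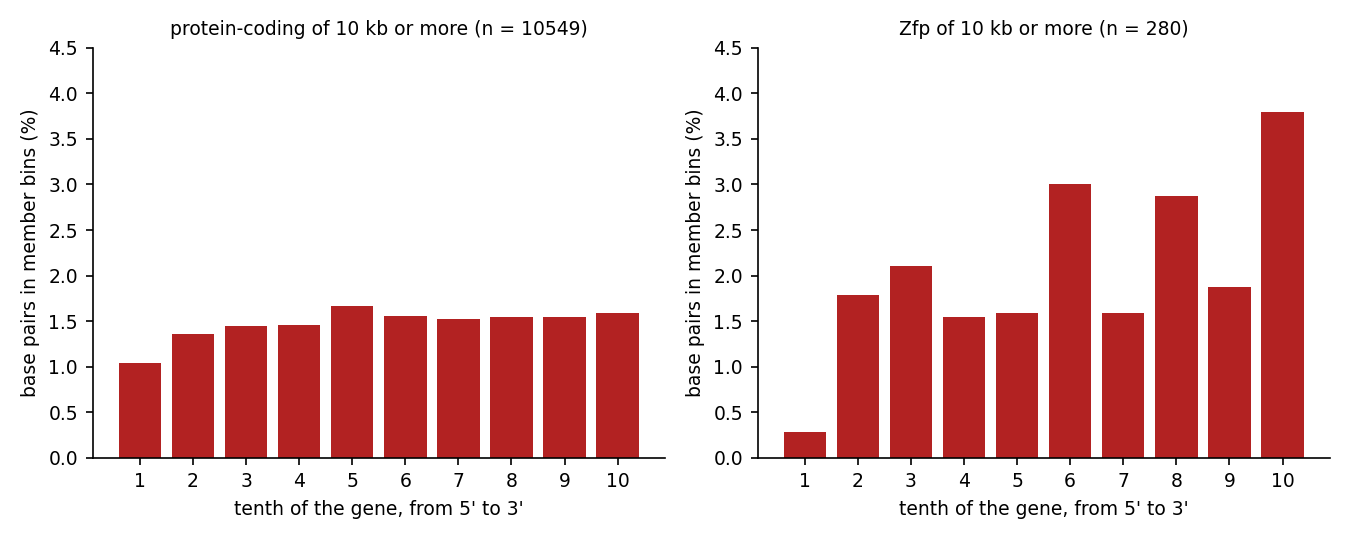
Share of base pairs in member bins (y axis, %) in each of 10 equal parts of the gene from 5′ to 3′ (x axis), for 10549 protein-coding genes of 10 kb or more (left) and 280 zinc finger Zfp genes of 10 kb or more (right). The first part is the lowest in both, at 1.04% and 0.28%, and the last part of the Zfp genes is their highest, at 3.80%.

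By gene family, the share of body base pairs in members ran from near the average of 1.52% to 27.2%. The families were drawn up from gene symbols with earlier results of these data known. Base pairs were summed gene by gene, here and in the gene lists below, so overlapping genes count the same bins more than once. In the clustered protocadherins, 274.5 kb were summed over 14 genes, whereas only 87 member bins lay within 50 kb of any gene of this family. The highest was Skint, a cluster of immunoglobulin-like genes known for selecting skin T cells, with 27.2% (8 of 11 genes with a member in the body). It was followed by the placental prolactin family Prl with 18.9% (8 of 25), the cytochrome P450 genes Cyp with 11.7% (31 of 99) and Olfr with 9.82% (128 of 1104). The vomeronasal families Vmn2r and Vmn1r had 8.42% (50 of 122) and 8.34% (26 of 230). Sulfotransferases (Sult) had 6.84%, defensins (Def) 6.54%, the pregnancy-specific glycoproteins and their relatives (Psg and Ceacam) 6.49%, lectin-like receptors (Klr and Clec) 5.50% and clustered protocadherins 5.32%. Obox had 3.61%, Ugt and the histone genes 2.81% each, Serpin 2.52% and Zfp 1.76%. The Obox and histone values rest on 1 gene each. Counted by gene, 15.8% of all protein-coding genes had a member in the body. Olfr (11.6%), Vmn1r (11.3%), Def (8.45%), Zfp (14.9%) and histone genes (1.49%) lay below that share, and the other families above it. Within 50 kb of a Skint gene lay 0.68% of member bins and 0.09% of all bins. Of bins called in all lists inside the long regions, 2.41% did. For Olfr these shares were 3.94%, 1.37% and 5.21%, and for Cyp 1.02%, 0.38% and 0.58%. For Zfp they were 1.21%, 1.57% and 0.55%. Near Obox and histone genes, too, the share of member bins lay below that of all bins. Many genes of these families are close copies of each other, and how reads that fit several copies were placed is not given in the sources used here, so values of single copies are uncertain.

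**Figure D5:**
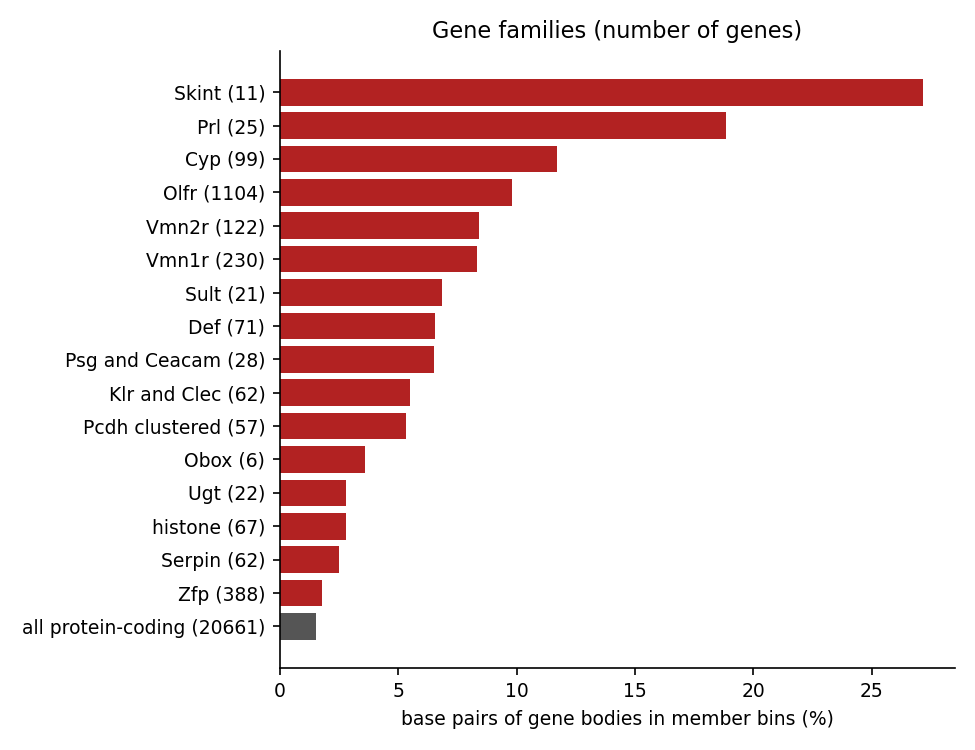
Share of the base pairs of gene bodies that lay in member bins (x axis, %), by gene family, with the number of genes in parentheses. All 16 families lie above the 1.52% of all 20661 protein-coding genes, from 1.76% for Zfp to 27.2% for Skint. Within 50 kb of Zfp, Obox and histone genes, however, the share of member bins was below that of all bins. Base pairs are summed gene by gene, so overlapping genes count the same bins more than once. The Obox and histone values rest on 1 gene each.

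The genes with the most member base pairs in the body were Skint5 and Csmd1. In Skint5 (chr4:113477891-113999503) 183 kb of 522 kb lay in members. From E13.5 to P3, peaks covered 384, 363, 354 and 314 kb of it in the het lists and 404, 360, 369 and 324 kb in the KO lists. Skint6 (chr4:112804616-113286973) had 115 kb in members, and peaks covered 357, 340, 298 and 245 kb (het) and 366, 338, 313 and 265 kb (KO) in the same order of stages. Both Skint genes thus held their longest marking at E13.5 and their shortest at P3, in either genotype. Skint9 had 28.0 kb in members.

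Cyp2c39 (chr19:39347346-39569568), a cytochrome P450 of fatty acid and drug metabolism, had 83.6 kb in members. Peaks covered 114, 106, 109 and 84.3 kb of it in het and 117, 106, 115 and 101 kb in KO, from E13.5 to P3. Cyp2c38 lies within the bounds of Cyp2c39, and its 26.1 kb in members are part of those 83.6 kb. The neighbouring Cyp2c29 had 35.7 kb. The gene models Gm37013, Gm38666 and Gm38667, with 84 kb each, overlap one another and the clustered protocadherin genes, so they count the same bins. Peaks over Gm37013 went from 280 and 267 kb at E13.5 to 136 and 144 kb at P3.

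The other genes at the top are very long single genes with another course. Csmd1, a large membrane protein gene with CUB and sushi domains (chr8:15892538-17535385), had 133 kb in members. Peaks covered 342, 551, 323 and 320 kb of it in het and 363, 387, 403 and 463 kb in KO, from E13.5 to P3. Fhit (chr14:9550092-11162061), a gene across a known fragile site, had 82 kb in members and went from 125 and 136 kb at E13.5 to 221 and 273 kb at P3. Naaladl2 (chr3:23798103-25144149), with 82 kb in members, went from 148 and 146 kb to 377 and 318 kb at E16.5 and 217 and 228 kb at P3. Fstl5 (chr3:76074275-76710010), which encodes a follistatin-like protein, had 65 kb in members and reached 375 and 339 kb at E16.5 from 140 and 175 kb at E13.5, then stood at 142 and 159 kb at P3. In these genes the members took a small part of the gene's length: 5.09% of Fhit, 6.09% of Naaladl2, 8.10% of Csmd1 and 10.2% of Fstl5.

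Some receptor genes lay whole inside members, with their flanks. For 133 protein-coding genes, all 2002 bp of both end windows (500 bp either side of each end) were in members, with a median gene length of 0.951 kb. Of these, 79 were Olfr and 19 Vmn genes. Because these ties could not be ranked, the first 10 in genome order are named: Olfr338, Olfr339, Olfr340, Olfr342, Olfr345, Olfr347, Olfr350, Olfr351, Olfr355 and Olfr356, all on chromosome 2. Olfr342 (chr2:36520130-36528352) was covered over its whole 8.22 kb in all 8 lists and lay in a run of 23 kb whose peak measured 22.4 to 23.9 kb. Olfr355 and Olfr356 lay in runs of 3 and 9 kb that were within 1 peak of 15.8 to 19.8 kb in the 6 lists up to P0. In the P3 lists they lay in separate peaks, of 5.57 and 9.68 kb (het) and 2.38 and 9.24 kb (KO). Of 938 Olfr genes with strand, 93 had member base pairs at the 5′ end, 99 at the 3′ end and 83 at both. Of the Vmn2r genes, Vmn2r60, Vmn2r107 and Vmn2r59 had most, with 31.3, 20.3 and 16.2 kb in members. Among Vmn1r these were Vmn1r63, Vmn1r14 and Vmn1r65, with 6, 2.85 and 2 kb, and among Prl genes Prl3a1, Prl3c1 and Prl2b1, with 7.66, 7.09 and 6.66 kb.

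Zinc finger genes of the Zfp family, many of which encode KRAB proteins that bind transposons, carried the sites at the 3′ side. Of 325 with strand, 17 (5.23%) had member base pairs at the 3′ end and 3 (0.92%) at the 5′ end. In the 280 genes of 10 kb or more, the last of 10 equal parts had 3.80% of its base pairs in members and the first 0.28%. The partly called bins leaned the same way, at 62 genes (19.08%) against 29 (8.92%), so the side is not particular to the members. Among Zfp genes with strand, Zfp735 alone had members at both ends: 17.0 kb of its 25.03 kb lay in members, and peaks covered 16.7 to 19.13 kb of it over the 8 lists. In Zfp758 23.9 kb of 32.5 kb lay in members, with none at the 5′ end, and peaks covered 24.1 to 27.9 kb. Zfp804b, a long gene of the same naming series, had 31 kb in members. Its peaks went from 41.9 and 52.0 kb at E13.5 to 125 and 116 kb at E16.5 and 99.0 and 101 kb at P3.

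Genes of the silencing and germ cell pathways were examined through 4 lists, which too were drawn up with earlier results known. Of 40 genes of the H3K9me3 machinery, 6 had a member in the body. Of 25 genes of the piRNA pathway, which directs transposon silencing in these cells, 6 (24.0%) had one. Of 68 germline genes 8 (11.8%) had one, and of 60 imprinted genes, which include non-coding RNA genes, 17 (28.3%). The share among all protein-coding genes, 15.8%, lies within this range. Such shares follow gene length, as given above. Per base pair of the bodies, 1.76% lay in members in the imprinted list and 1.63% in the piRNA list. The germline list had 1.03% and the machinery list 0.89%, against 1.52% over all protein-coding genes. In the machinery list the genes with a member were Morc3, Atf7ip2, Pphln1, Ehmt1, Smchd1 and Morc2b. In the germline and piRNA lists the helicase gene Mov10l1 led with 10 kb, followed by the meiotic gene Mei4 with 9 kb and the piRNA gene Asz1 with 3 kb. Peaks over Mov10l1 covered 10.4, 15.7, 15.1 and 22.7 kb in het and 16.0, 16.9, 15.8 and 24.1 kb in KO, from E13.5 to P3. Kit, the receptor of stem cell factor, held 1 kb of members, with peaks over 1.00 to 3.47 kb.

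At gene ends these lists held 3 genes. Morc2b, a Morc gene, had its whole 5′ window in the run chr17:33149001-33151000, whose peak measured 3.29, 4.60, 5.17 and 4.74 kb in het and 3.10, 3.63, 5.47 and 4.87 kb in KO, from E13.5 to P3. Igf2, the paternally expressed growth factor gene, had 316 bp of its 5′ window in the run chr7:142667001-142673000, in peaks of 6.15 (P0 het) to 8.12 kb (E13.5 KO). The body of Igf2 itself (chr7:142650768-142666816) held no member. Inpp5f, a phosphatase gene with an imprinted isoform, had 320 bp of its 5′ window in the run chr7:128610001-128611000, in peaks of 1.25 to 1.78 kb. No germline or piRNA gene of the lists had a member at an end. Among imprinted genes the most member base pairs lay in Snrpn (chr7:59982495-60450177), with 32 kb. Its peaks covered 223, 212, 165.3 and 126 kb in het and 250, 205, 169 and 138 kb in KO, from E13.5 to P3.

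Among other gene classes, pseudogenes had members at an end in 7.26% of 8884 cases and in 5.84% of their base pairs. Long non-coding RNA genes had 4.82% of 12408 and 2.32%. None of the 61 ribosomal RNA genes of the table and 3 of 391 transfer RNA genes had one at an end. Of the immunoglobulin and T cell receptor V segment pseudogenes, 28 of 153 had a member at an end, against 30 of 394 V segments.

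The sites were spread over all autosomes. Chromosomes 1 and 3 held the most, with 42.1 and 41.3 member bins per Mb, and chromosomes 11 and 2 the fewest, with 21.8 and 24.97. The same rule on chromosome X gave 3021 bins, or 18.4 per Mb, below every autosome. The cells are male and hold 1 copy of X, and the part of copy number in this lower density was not tested. In 478 steps of 5 Mb, the member share ran from 0.44% to 13.46% with a median of 2.73%, and no step was without a member. The densest step, chr17:18059001-23059000, held 67 protein-coding genes, of which 38 were Vmn and 20 Zfp genes. The next, chr1:28000001-33000000 (12.9%) and chr3:73052001-78052000 (12.4%), held 8 and 10 genes, none of them of these families. The sparsest, chr2:173098001-178098000, held 52 genes with 10 Zfp genes among them, and the next, chr11:93277001-98277000 (0.46%), held 112. The first 5 Mb from the first peak of each autosome, at its centromeric side, had 5.19% of bins in members, the last step 2.49%, and all steps together 3.40%. The last step is shorter than 5 Mb on some autosomes. On others it stops before the last peak, by up to 2.373 Mb (chromosome 10), so the steps do not reach every distal end.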

How the data were processed

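H3K9me3 ChIP-seq peaks of male mouse germ cells were analysed in 8 lists, 1 for each stage and genotype, assigned by the stage and genotype in their names. Each list, as the authors deposited it, gives peaks by position only (first and last base pair), without height, score or p-value. Per the submitters' processing notes, the build was mm10 and the tools were bcl2fastq 2.20, cutadapt 1.18, Bowtie2 2.3.4.1, deepTools 3.5.0 and HOMER 4.10; their roles, the peak caller and its threshold, the use of the 16 H3 samples, the pooling of replicates and read depth are not given in the sources used here.

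The members and the gene lists were chosen with earlier results of these data known. Bins, runs and overlaps were computed with Python 3.11.15, numpy 2.4.6 and pandas 2.3.3, and the code was tested on simulated data with planted sites. With 1 list per group no test was run. Genes came from the RefSeq table of GRCm38.p6, and 16456 of 20661 autosomal protein-coding genes had a strand (79.6%). Gene ends were windows of 500 bp on either side. Named items were, by rule, the 10 longest runs, 3 runs with the largest peak growth, the 10 genes with most member base pairs in the body or at the ends, genes of the fixed lists with a member at an end, the top 3 genes of families, and the autosomes with most and fewest members; other genes were named after their values were seen. Alternatives changed the coverage limit, bin size and origin, the long-region limit, the peaks used, the lists used and the gene windows.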

Additional observations from a re-analysis of the deposited data

Results flagged for a closer look

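The genotype difference in the length of the peaks around the sites had the opposite sign at E16.5. The median KO minus het difference was -108 bp at E16.5, negative on 19 of 19 autosomes, and positive on 19 of 19 at each other stage (172 bp at E13.5 and 197 bp at P3). The difference between stages was not tested, since each stage and genotype has 1 list. The whole E16.5 het list also called more bins than the KO list (292465 against 268662), the reverse of the other stages.

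On chromosome Y, which the rule left out, 54 bins were called in all 8 lists, of 322 called in any. None lay in a long region. By list, the called bins numbered 194 (het) and 251 (KO) at E13.5, 166 and 170 at E16.5, 172 and 202 at P0, and 70 and 104 at P3.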

How the results depend on the processing

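Under 20 of 21 alternatives the length in members stayed within 1.5 times the 81716 kb reported, and under 19 of 21 so did the number of runs. When the whole bin had to lie in peaks, 51342 kb in 19124 runs were left, with 16.2% of bins in gene bodies and 1.81% at gene ends. With the longer 50% of each list, 15684 runs were left, with 15.9% in gene bodies and 1.66% at ends. The share in gene bodies, 17.9% as reported, was 18.5% with 25% of the bin required, 17.2% with 75%, 19.002% with long regions of 20 kb or more left out, 16.9% with 50 kb, 16.3% with none left out, 17.5% with peaks of the most common length dropped, 17.1% with the longest peaks in equal number, and 26.0% over all genes of the table. The share at gene ends, 1.54% as reported, was 1.64% with 75% of the bin required, 1.21% with bins of 500 bp, 2.305% with bins of 2 kb, 1.35% and 1.63% with long regions of 20 and 50 kb, 1.66% with none left out, 3.65% with ends widened to 2 kb and 4.53% over all genes. The share of CpG-rich promoters, 1.45% as reported, rests on few windows and ranged from 0.48% (bins of 500 bp) to 2.43% (25% of the bin required); it was 0.54% with 75% required, 0.59% with the whole bin, 0.93% with bins shifted by 500 bp, 2.29% with bins of 2 kb and 2.19% with long regions of 20 kb or more left out. Leaving out each list in turn gave 82015 to 92532 kb, 30598 to 33773 runs, 17.8% to 18.3% in gene bodies, 1.52% to 1.56% at ends and 1.36% to 1.90% of promoters CpG-rich. The highest length and number of runs came without the E13.5 het list. Leaving out bins that touch a long region, an alternative chosen after seeing the data, gave 81612 kb. No paired analysis was possible because the lists carry no replicate numbers and give 1 call set per group. Where a share moved, the cause was not tested unless the alternative itself changes what is counted. Read depth is unknown, so a site missing from a list may be unmarked or not detectable at its depth.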
